A study of Caenorhabditis elegans with 2 samples.

Results

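Nuclear hormone receptors are transcription factors with a zinc-finger domain that binds DNA and a second domain that can hold a small lipophilic ligand such as a sterol or a fatty acid. Caenorhabditis elegans carries an unusually large family of them, most of it descended from an ancestor of the HNF4 type and much of it clustered on chromosome V, and several members set fat, sterol and propionate metabolism in the intestine. The members described here were the protein-coding genes whose Ensembl WBcel235 symbol begins with nhr-, 269 of 19973 protein-coding genes. The rule for membership uses the gene name and no peak value, although the family itself was picked with earlier results of these data known.

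The occupancy data came from chromatin immunoprecipitation and sequencing (ChIP-seq) against DPL-1, the worm's DP protein, which pairs with E2F factors and belongs to the DREAM complex that represses cell cycle genes. There was 1 group of 2 biological replicates, whole L1 larvae of pooled sex from strain YL448, genotype unc-119(ed3)III with the insertion vrIs83. That insertion holds DPL-1 tagged with GFP and FLAG under the pGES-1 promoter, which is active in the intestine, with the DPL-1 3'UTR and a rescuing unc-119 (+) copy. Both replicates carried all of these alleles, so there was no group without the transgene, and tissues could not be told apart in whole larvae. The antibody label reads dpl-1 and names no epitope, so native and transgenic DPL-1 could not be told apart either. On build ce11 the authors kept 3726 peaks at their irreproducible discovery rate (IDR) threshold, while each replicate's list held 30000 peaks without a threshold. The lists give no read totals, so the depth behind a peak was unknown and intervals below cover the counting of genes alone. Replicate 1 had a median of 5.32 times the signal of replicate 2 at the same IDR peak.

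DPL-1 peaks lay at 26 of the 269 nuclear hormone receptor promoters (9.67%, exact 95% interval 6.41 to 13.8%), against 14.3% of all protein-coding genes, and nearly all of these peaks were weak. Bound genes here are those with the summit of an IDR peak from 500 bp upstream to 200 bp downstream of one of its transcript starts. Only nhr-47 had a peak among the strongest 746 of the IDR list. The stronger 1863 peaks marked 4 members (nhr-47, nhr-49, nhr-119 and nhr-256), or 1.49% of the family, against 9.36% of all genes. Of the 243 unbound members, 86 had only a peak of the pooled list below the IDR threshold in their promoter, and 157 had none. The former were 32% of the family, against 23.3% of all genes, and the latter 58.4%, against 62.4%. The pooled list, labelled by the authors as peaks and background for input to IDR, held 30000 entries down to a signal of 9.07. Its weak entries, called pooled peaks below, can therefore be background. Entries of any strength marked 112 members (41.6%), against 37.6% of all genes. Genes are not replicates of one another, and no test was made on these shares.

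The sequence under the summits of this family rarely held the strings linked to E2F and DREAM. On either strand, the 50 bp to each side of a summit were scanned for 4 strings, namely the E2F-type strings GCGCGAA and GCGGGAA and the CHR-type strings TTTGAA and TTCGAA, none of which contains another. GCGCGAA and TTCGAA were at no summit of the 26 bound members, and GCGGGAA was at 1, in nhr-88. Windows of 30 bases on the plus strand of ce11 are shown for 3 of the 4 strongest peaks, with the summit base in capitals, and for each member with a string, with the string in capitals:
nhr-47, chrV:5505225-5505254: cgccagcatccaataAcgcgtcagccgcaa
nhr-119, chrII:2800977-2801006: aaaaatgataagaatCaagagagggtgaga
nhr-256, chrV:1743683-1743712: cttctcttcagcgttTtattgctctcaccc
nhr-88, chrII:2977908-2977937: aaattgatttgGCGGGAAattttgttgaga
nhr-80, chrIII:14917-14946: tctcattttttcTTTGAAtggagaggtaac
nhr-101, chrV:11570444-11570473: cacacgttttctTTCAAAaattgattttca
nhr-156, chrV:3905970-3905999: aataatgtctacTTCAAAactctctcactc

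In the nhr-88 promoter the GCGGGAA string was centred 4 bp from the summit, and in nhr-80, nhr-101 and nhr-156 the TTTGAA string, read on the minus strand in the last 2, was 21, 45 and 38 bp away. One of the 2 E2F-type strings was thus at 3.85% of bound members, against 9.62% of the 2183 peaks of other bound genes, 4.88% of those among the weaker peaks, and 2.07% of 29314 windows of the same length centred 150 bp upstream of transcript starts. TTTGAA was at 11.5% of bound members, 27.3% of the peaks of other bound genes, 16.5% of the weaker of those and 29% of the upstream windows. With 26 summits, 1 member changes a share by 3.85 percentage points, and the member values sit near those of other weak peaks for the E2F-type strings. The sequence within 50 bp of the summits was 42.6% G and C at the median of bound members (30.7 to 56.4%) and 45.5% at the peaks of other bound genes.

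The peak of nhr-47 stood far above those in the other 25 bound promoters of the family. It lay at chrV:5505136-5505360 with a pooled signal of 453 (rank 531), and its signal was 371 in replicate 1 (rank 538) and 83.7 in replicate 2 (rank 497), so it held nearly the same place in both. Its summit was intergenic, 13 bp upstream of nhr-47 (WBGene00003637, chrV:5505253-5509956, plus strand). It was also 383 bp upstream of dnj-19, a gene for a J-domain cochaperone transcribed the other way, so the summit is in the promoters of both genes and cannot be given to one by position. The next member, nhr-49, had a pooled signal of 120.

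The other members among the stronger 1863 peaks were nhr-49, nhr-119 and nhr-256, and each had a peak at similar ranks in both replicates. NHR-49, which governs fatty acid desaturation and breakdown, had its peak at chrI:9869157-9869476, with signals of 101 in replicate 1 (rank 1567) and 17.2 in replicate 2 (rank 1611). The summit was intergenic, 334 bp upstream of the transcript start, and the nearest start of another gene, inx-20, was 5381 bp away. The nhr-119 peak (chrII:2800832-2801151, signal 117, 392 bp upstream) had 99.6 in replicate 1 and 12.7 in replicate 2, with ranks of 1579 and 2118. For nhr-256 (chrV:1743538-1743857, signal 105, 73 bp upstream), replicate 1 gave 83.7 and replicate 2 gave 17.5, with ranks of 1811 and 1589. These 3 promoters therefore had similar signals, and their summits had no other protein-coding start within 1000 bp.

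**Figure D1:**
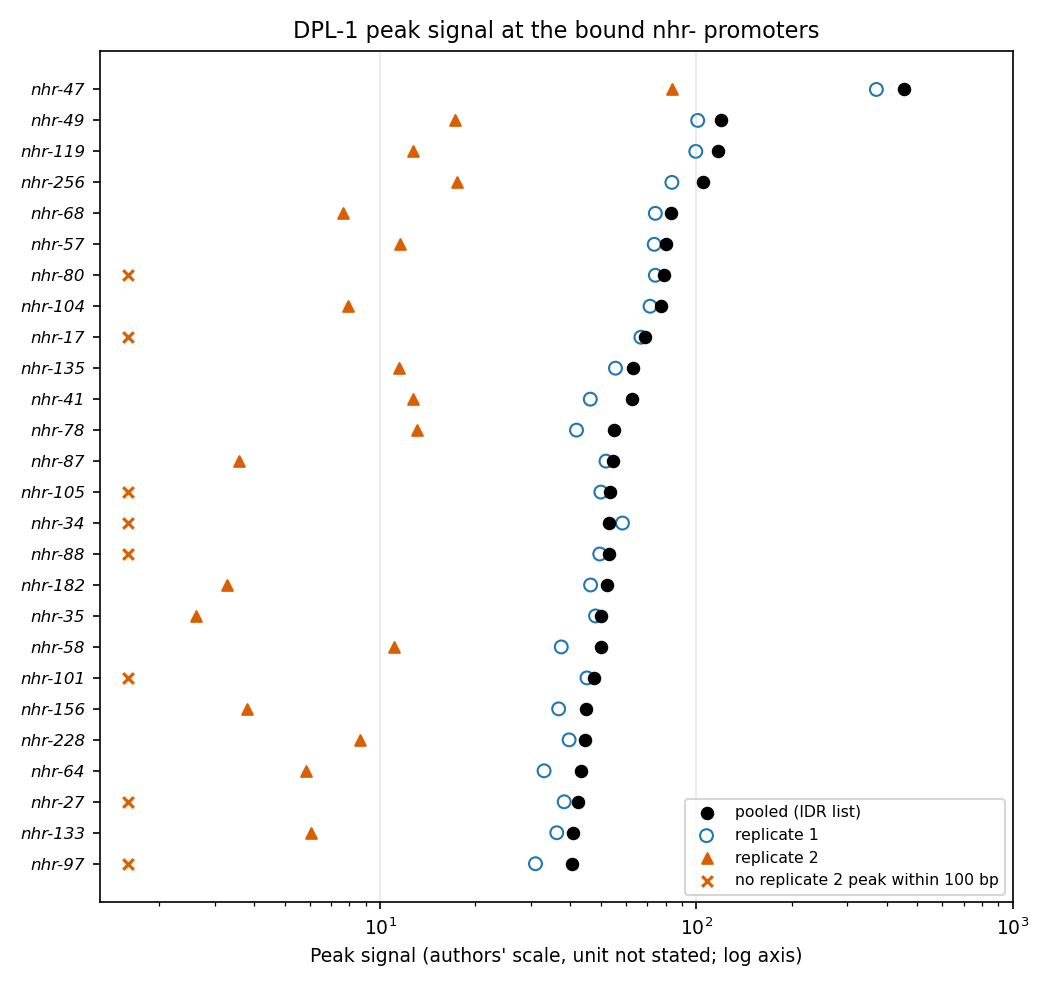
Peak signal on the authors' scale (log axis) at each of the 26 bound nhr- promoters, with the pooled value, replicate 1 and replicate 2 as separate marks and a cross where replicate 2 had no peak within 100 bp. The nhr-47 peak stands at 453 and the others from 40.5 to 120, and 8 members carry a cross.

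Receptors of known metabolic role held 4 of the 26 bound promoters. A list of 13 receptors of metabolism and stress, chosen with earlier results of these data known, had nhr-49, nhr-57, nhr-68 and nhr-80 bound (30.8%), against 14.3% of all genes, with nhr-49 alone among the stronger peaks. A list this short cannot show that such receptors were bound more often than other genes. The nhr-68 peak (chrV:11572889-11573208, signal 83.4, rank 2055) had 74.2 in replicate 1 and 7.66 in replicate 2. NHR-68 acts with NHR-10 to switch on the propionate shunt. Its summit was 391 bp upstream of nhr-68 but only 59 bp upstream of H12C20.7, so the nearest start belongs to the neighbour. The peak of nhr-57, a gene induced by hypoxia, lay at chrV:4131515-4131834 (signal 80.1, 214 bp upstream), with 73.6 in replicate 1 and 11.6 in replicate 2. NHR-80, a partner of NHR-49 in controlling fatty acid desaturases, had a peak at chrIII:14793-15112 (signal 79.2, 84 bp upstream) with 74.2 in replicate 1 and no peak within 100 bp in replicate 2. Of these 4 promoters, 3 had a peak in both replicates.

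The 9 unbound receptors of that list differed in what lay below the threshold. In the pooled list, nhr-86, a receptor that senses a bacterial toxin metabolite, had a peak of signal 37.5 (rank 3875), just short of the weakest IDR peak at 39.5. The NHR-49 partners nhr-13 and nhr-66 had peaks at ranks 5302 and 10316, and nhr-114, of methionine and amino acid metabolism, had one at rank 6327. No pooled summit lay in the promoter of nhr-8, a receptor of sterol balance and detoxification, or of nhr-10, nhr-62, nhr-76 or nhr-79.

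Receptors with counterparts in insects or vertebrates were listed in a set outside the HNF4 type and a set within it, both too short for their shares to be read against the 14.3% of all genes. Of 10 such genes outside the HNF4 type, 1 was bound, nhr-41, the worm counterpart of the Drosophila receptor DHR78. Its peak (chrIV:1388148-1388467, signal 62.8, rank 2566) had 46.2 in replicate 1 and 12.7 in replicate 2. The summit was 348 bp upstream of one transcript start but 211 bp downstream of another, inside an nhr-41 intron and 21 bp from a tRNA gene, the only bound member with a tRNA, snoRNA, snRNA or rRNA gene within 200 bp. Which of these features the peak belongs to was not tested.

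Of 4 HNF4-type receptors with counterparts, nhr-35 and nhr-64 were bound and nhr-14 and nhr-69 were not. The nhr-35 peak (chrX:4532170-4532489, rank 3097, 361 bp upstream) ranked 2835 in replicate 1 but 25306 in replicate 2, where its signal was 2.62. For nhr-64 the peak lay at chrI:3101793-3102112 (signal 43.3, 30 bp upstream, in an exon outside the coding sequence), with 33.0 in replicate 1 and 5.84 in replicate 2. Both of these peaks were thus near the low end of the IDR list. A list of development and moulting receptors, which overlaps the first of these, also had 1 of 10 bound, again nhr-41, near the share of the whole family. The promoters of nhr-6, nhr-67, nhr-91, nhr-2 and nhr-60 held no pooled summit, while that of nhr-25, a regulator of epidermal development, held one of signal 30.2 (rank 4648). That of nhr-23, which drives moulting, held one of 14.6 (rank 12264).

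Another 19 bound members were on no list of roles and, after nhr-47, nhr-119 and nhr-256, had signals from 40.5 to 77.3. The strongest of these 16 was nhr-104 (chrIV:4788364-4788683), with 71.4 in replicate 1 and 7.90 in replicate 2, and its summit in a noncoding part of its own exon 41 bp upstream of a start. It was followed by nhr-17 on X (68.8), nhr-135 on V (63.1) and nhr-78 on IV (54.9). The nhr-78 peak was relatively high in replicate 2, with rank 2058 there against 3182 in replicate 1. Then came nhr-87 (54.5), nhr-105 (53.3), nhr-34 (53.0) and nhr-88 (52.8), of which the last 3 had no match in replicate 2. Below them were nhr-182 (52.0), nhr-58 (rank 3101), nhr-101 (47.6), nhr-156 (44.7), nhr-228 (44.6), nhr-27 (42.2), nhr-133 (40.8) and last nhr-97 (40.5, rank 3664). These values crowd the lower end of the list, whose weakest peak had 39.5.

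Bound members lay in the weaker part of the IDR list. When the IDR list was cut by signal into 5 equal groups, they numbered 1, 0, 7, 8 and 10, from the top group down, while other bound genes numbered 915, 687, 509, 389 and 326. Their median signal was 53.9 (quartiles 48.2 and 78.7) and that of the 2826 other bound genes was 157 (quartiles 74.5 and 416). The weaker 1863 peaks held 84.6% of bound members and 34% of other bound genes. Every bound member except nhr-47 thus sat below rank 1491, where 43.3% of other bound genes sat.

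**Figure D2:**
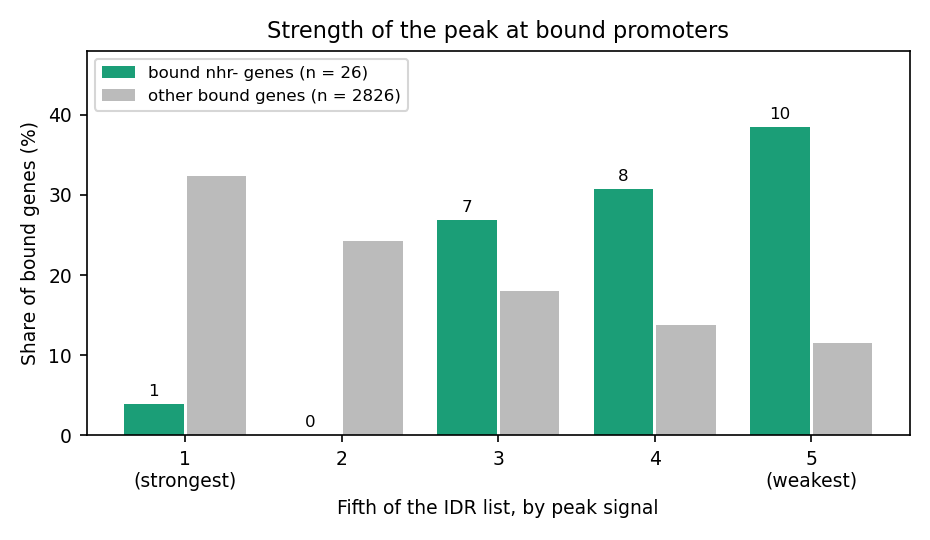
Share of bound genes (vertical axis, %) whose strongest promoter peak falls in each of 5 equal groups of the IDR list ordered by signal, for 26 nhr- genes and 2826 other genes. Members number 1 in the strongest group, 0 in the next and 10 in the weakest, while the share of other genes falls from 32.4 to 11.5%.

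Support in replicate 2 was patchy. All 26 peaks had a match in replicate 1, where 24 ranked within the first 3726, but 8 had none within 100 bp in replicate 2, namely those of nhr-80, nhr-17, nhr-105, nhr-34, nhr-88, nhr-101, nhr-27 and nhr-97. That left 18 of 26 members matched in both (69.2%, interval 48.2 to 85.7%), against 90.9% of the peaks of other bound genes. All 4 members among the stronger peaks were matched. For the weaker peaks the shares were 63.6% for members (14 of 22) and 77.1% for other bound genes. Among the 18, 11 ranked within the first 3726 of replicate 2, and 4 (nhr-35, nhr-182, nhr-87 and nhr-156) ranked beyond 10000 there. Replicate 1 gave 85.6% of the summed signal of the 2 replicates at the median matched member (76.1 to 94.8%) and 84.2% at the median IDR peak.

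The replicate lists taken alone gave different members. With as many of its strongest peaks as the IDR list holds, replicate 1 marked 29 members (10.8%, against 14.3% of all genes), of which 24 were among the 26, and added nhr-152, nhr-3, nhr-50, nhr-86 and nhr-94. Replicate 2 marked 14 (5.20%, against 12.8% of all genes), of which 11 were among the 26, and added nhr-134, nhr-193 and nhr-227. The 11 were nhr-41, nhr-47, nhr-49, nhr-57, nhr-58, nhr-78, nhr-104, nhr-119, nhr-135, nhr-228 and nhr-256, and all but nhr-58 and nhr-228 had a pooled signal above that of the median bound member.

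Few bound members shared their peak with a neighbour, and genes with a promoter of their own were bound about as often in this family as elsewhere. The summit lay in the promoter of another protein-coding gene for 3 of 26 members (11.5%, interval 2.45 to 30.2%), against 45.2% of other bound genes, or 33.7% of those with weaker peaks. They were nhr-47 with dnj-19, nhr-68 with H12C20.7, and nhr-101 with pms-2, a mismatch repair gene. The nhr-101 summit (chrV:11570254-11570573) was 62 bp upstream of nhr-101 and 187 bp inside pms-2, in an exon outside its coding sequence. The genes nhr-101 and nhr-68 are each other's nearest family member, 891 bp apart on the same strand, with a start of H12C20.7 between them.

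The family as a whole has few shared promoters. Of the 269 members, 245 (91.1%) had promoter windows that overlap none of another protein-coding gene, against 78.2% of all genes. On such promoters 22 of 245 members were bound (8.98%, interval 5.71 to 13.3%), against 8.42% of all genes with such promoters. On promoters that overlap another gene's, 4 of 24 members were bound (16.7%), against 35.3% of all genes. Restricted to promoters that overlap no other, 3 members (1.22%) were marked by the stronger 1863 peaks, against 4.74% of all genes, and the median signal was 53.1 against 116. The share bound was thus near the background on such promoters, while the values of the peaks remained lower.

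By chromosome, bound members numbered 2 of 23 on I (8.70%, interval 1.07 to 28.0%), 2 of 15 on II (13.3%, 1.66 to 40.5%), 1 of 8 on III (12.5%, 0.316 to 52.7%), 7 of 33 on IV (21.2%, 8.98 to 38.9%), 11 of 167 on V (6.59%, 3.33 to 11.5%) and 3 of 23 on X (13%, 2.78 to 33.6%). Shares of all genes were 21.6% on I, 14.2% on II, 22.9% on III, 13.7% on IV, 9.37% on V and 8.09% on X. Each interval for the family holds the share of all genes of that chromosome. The family's lowest share was on V, which holds 62.1% of members but 24.5% of other genes. Among the other chromosomes IV had the most bound members, nhr-104, nhr-41, nhr-78, nhr-87, nhr-105, nhr-34 and nhr-97, none of them among the stronger 1863 peaks.

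**Figure D3:**
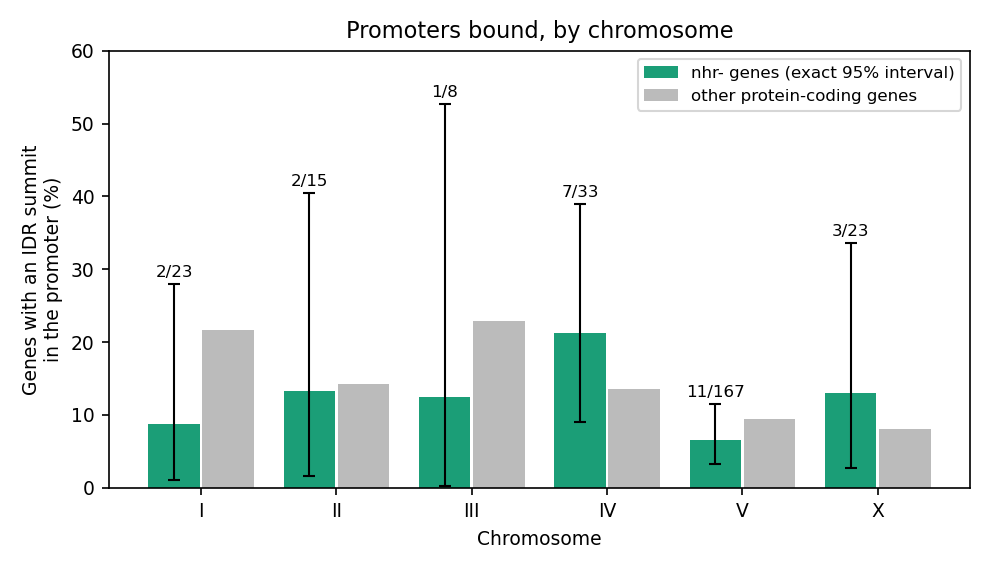
Share of genes (vertical axis, %) with an IDR summit in the promoter on each chromosome, for nhr- genes with exact 95% intervals and counts, and for other protein-coding genes. The nhr- share is 6.59% on V and 21.2% on IV, and each interval spans the grey bar beside it.

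The share of members bound had no single pattern by place on the chromosome. It was higher outside the middle 50% of the chromosome on II, III and IV and lower there on I, V and X, with at most 7 bound members in any zone. Outside the middle 50% of chromosome V, 7 members were bound (6.31% of those there), against 5.98% of other genes there. In the middle 50% of V, 4 of 56 members were bound (7.14%), against 12.5% of other genes. Had members been bound at the share of all other genes, 38.6 would have been bound. At the share of other genes of the same chromosome this became 31.1, and at that of the same chromosome and the same zone (middle 50% or outside it) 29, against the 26 counted. The same reckoning for the stronger 1863 peaks gave 25.5, 20.6 and 19.2 members, against the 4 counted. Whether place on the chromosome bears on either number was not tested. Members within 5000 bp of another member were bound in 10 of 142 cases (7.04%, interval 3.43 to 12.6%) and the more isolated ones in 16 of 127 (12.6%, interval 7.38 to 19.7%). Of the former 112 were on V, and of the latter 55. The share of all genes was 14.3%, and 9.37% on V. Whether clustering itself bears on the share bound was not tested.

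Few summits of bound members lay in the band where most of those of other genes did. Positions were taken from the nearest transcript start whose window held the summit, and 23 of 26 were upstream of it. Among these, the summits of nhr-41, nhr-64, nhr-88 and nhr-104, genes with several starts, lay inside the gene. Over all 26 the median position was -83.5 bp, with quartiles of -344 and -32 bp. Other bound genes had a median of -174 bp and quartiles of -280 and -101 bp. Within 100 bp upstream were 11 members (42.3%, against 19.5% of other bound genes), from there to 300 bp were 3 (11.5%, against 54.3%), and beyond 300 bp were 9. Those beyond 300 bp were of nhr-49, nhr-119, nhr-68, nhr-17, nhr-41, nhr-88, nhr-35, nhr-27 and nhr-97. The share of other bound genes beyond 300 bp was not taken, so these 9 have no background beside them. The 3 summits at or past the start were those of nhr-133 at 0 bp, nhr-182 at 1 bp and nhr-34 at 9 bp. By annotation 17 of the 26 summits were intergenic, 5 lay in exons outside coding sequence, 3 in introns (nhr-41, nhr-88 and, for nhr-27, an intron of gei-3) and 1 in a coding exon, that of nhr-34.

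**Figure D4:**
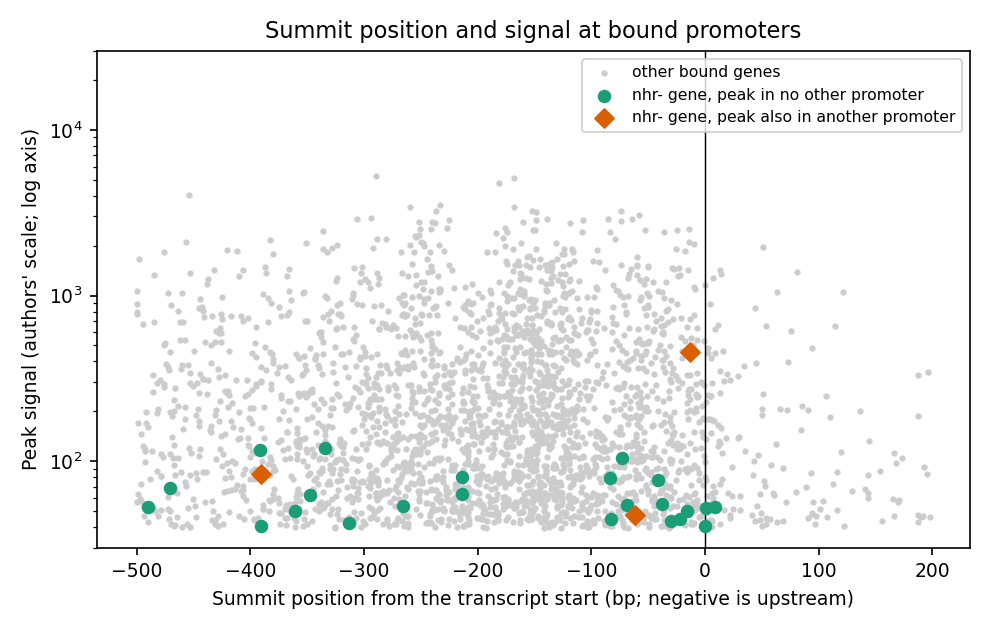
Summit position from the transcript start (horizontal axis, bp, negative upstream) against peak signal (authors' scale, log axis) for the 26 bound nhr- genes, with diamonds where the peak is also in another gene's promoter, over 2826 other bound genes in grey. Of the members, 11 lie within 100 bp upstream (42.3%, against 19.5% of other bound genes) and 9 beyond 300 bp, where no share of others was taken. The nhr-47 peak alone stands high.

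The window edge decided a few members. The farthest bound summits were those of nhr-88 at 490 bp and nhr-17 at 471 bp upstream. Just outside, the nhr-142 summit lay 516 bp upstream, with a signal of 372 (rank 629), above every bound member but nhr-47. That peak (chrV:5790972-5791185) had 323 in replicate 1 and 57.9 in replicate 2 and lay in the promoter of F44E7.9, whose start was the nearest. The other members with an IDR summit within 1000 bp upstream were nhr-237 (683 bp, signal 41.2), nhr-48 (986 bp, signal 53.9), of the receptor group that includes DAF-12, and nhr-85.

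Inside the genes, 10 members held 15 IDR peaks that lay outside every promoter, all in introns of the member (3.72% of members, interval 1.80 to 6.73%, against 2.25% of all genes). All 10 are named here, a choice made after their values were seen. The gene nhr-19 held 4 of them, the strongest at chrII:9603606-9603686 with a signal of 279 (rank 788), 251 in replicate 1 and 26.2 in replicate 2. Its others had 103, 56.9 and 45.2, and the last 2 were without a match in replicate 2. In nhr-85, whose product is of the E75 and Rev-erb type and acts in developmental timing, an intronic peak at chrI:13060531-13060614 had a signal of 191 (rank 1062), with 164 in replicate 1 and 24.1 in replicate 2. A second intronic nhr-85 peak had 55.9, and 1 more, 707 bp upstream of a start, had 55.3. The promoter windows of nhr-85 and nhr-19 held no IDR summit, so both genes were counted as unbound.

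Further intronic peaks were at nhr-46 (rank 1616), nhr-31 (113), which acts in the excretory canal, nhr-34 (77.7 and 73.4), nhr-14 (rank 2222), nhr-3 (68.3), nhr-17 (52.2), nhr-21 (47.4) and nhr-23 (41.5). Of the 15 peaks, 5 were among the stronger 1863 and 10 were matched in both replicates. In nhr-34 and nhr-17 they came in addition to a promoter peak. With promoters, 1000 bp upstream and gene bodies together, 37 of 269 members (13.8%) had an IDR summit, against 18.6% of all genes, and 232 had none.

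Outside the nhr- names, bound genes of the receptor pathway were coregulators and target enzymes, on short lists chosen with earlier results known and against 14.3% of all genes. None of the 5 receptors with other names (daf-12, fax-1, odr-7, sex-1 and unc-55) and none of 8 genes of sterol ligand synthesis and transport, such as the cytochrome P450 gene daf-9, was bound. Of 4 coregulators only cbp-1, the CBP and p300 acetyltransferase, was bound (signal 69.9, with 58.7 in replicate 1 and 7.68 in replicate 2). The DAF-12 corepressor din-1 had 34.5 and the Mediator subunit mdt-15, a partner of NHR-49, had 23.3, both below the threshold.

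Of 12 target enzymes of NHR-49, NHR-10 and NHR-68, 4 were bound (33.3%), against 14.3% of all genes, a list too short to show a difference from that share. Of these, 3 serve the propionate shunt that NHR-10 and NHR-68 control. The strongest, hach-1 (signal 153, with 112 in replicate 1 and 38.9 in replicate 2), shares its peak with nmad-1. The other bound shunt genes were alh-8 (70.6) and hphd-1 (41.7, rank 3581, near the low end of the IDR list). Unbound were acdh-1, the first shunt gene, with only a pooled peak of 10.2, and ech-6 of the same list, with one of 27.2 (rank 5120). The last of the 4, icl-1 of the glyoxylate cycle (57.9, not matched in replicate 2), shares its peak with the chemoreceptor gene srh-2. The desaturase genes fat-5 and fat-7 held no pooled summit.

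Beside other large or regulatory families, the receptors had the highest share bound of the 5 families set side by side, all of which lay below the 14.3% of all genes. Chemoreceptor genes of the srh and sri classes were bound at 5 of 281 promoters (1.78%), C-type lectin genes at 5 of 240 promoters (2.08%), F-box A and MATH genes at 12 of 207 (5.80%) and ceh homeobox genes at 4 of 63 (6.35%, interval 1.76 to 15.5%). No test was made between the families. Among the stronger 1863 peaks were 4 of the 26 bound receptor genes, 3 of 5 chemoreceptor genes, 1 of 5 lectin genes, 3 of 12 F-box A and MATH genes and 2 of 4 homeobox genes. In these counts the receptors had the highest share bound and the lowest share of bound genes with a strong peak. The homeobox interval and that of the F-box A and MATH genes (3.03 to 9.91%) both hold the receptors' share of 9.67%. With 5 bound lectin genes a single gene could change the second order.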

How the data were processed

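Peak lists, deposited by the authors on builds ce10 and ce11, were the starting point. As their descriptions have it, replicate lists were made from the alignment of 1 replicate with its control, while the pooled and IDR lists draw on both replicates. The aligner and the peak caller are not given in the sources used here. Peak signal, on a scale the authors' files do not state, was used to rank and describe peaks within a list. The ratio and the shares of signal between the replicate lists are description alone. The depth of each list is unknown, so they do not measure a difference in binding. The -log10 q deposited by the authors reached a shared maximum of 3.64 in 2162 IDR peaks and was not used for ranking. Only ce11 lists were analysed, since the Ensembl release 115 annotation and the RefSeq genome are WBcel235, the same assembly.

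Promoter windows were set around 29314 starts of protein-coding transcripts of 19973 genes. A gene took its strongest IDR summit, and summits within 100 bp were matched between lists. Shares have exact Clopper-Pearson 95% intervals, and no test was run, since 1 group was measured. Named genes are every bound member, members with a summit within 1000 bp upstream, genes sharing a bound member's peak and genes of the role lists. Members with intronic peaks, with a peak in 1 replicate or just below the threshold were added after their values were seen. Membership follows the gene name, but the family and the role lists were chosen with earlier results of these data known. Calling and matching were run on simulated summits planted inside the windows, which checks these steps and not whether the deposited peaks are real. Python 3.11.15, with pandas 2.3.3, numpy 2.4.6, matplotlib 3.10.9 and scipy 1.17.1, was used.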

Additional observations from a re-analysis of the deposited data

How the results depend on the processing

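The 26 bound members (9.67%, against 14.3% of all genes) became 25 with promoters ending at the start (9.29% against 13.8%), 27 with any base of the peak (10% against 15.3%), 30 from 1000 bp upstream (11.2% against 17.3%), 32 with nearest starts alone (11.9% against 13%) and 22 of 245 on promoters that overlap no other (8.98% against 8.42%). The gap to all genes thus nearly closed with nearest starts and was absent on promoters that overlap no other. Leaving out a replicate gave 14 to 29, the lower value without replicate 1. The stronger 1863 peaks left 4 members, all matched in both replicates, with 1 sharing its peak, and by chromosome left 1 on I, 1 on II, 0 on III, 0 on IV, 2 on V and 0 on X. From 1000 bp upstream 5 members shared a peak. With summits matched within 50 bp, 16 of the 26 members had a match in both replicates. Within 200 bp this was 20, against 18 within 100 bp. Counts by chromosome otherwise stayed within 1.5 times. Ranks were within 1.5 times of the IDR rank for 26 of 26 members in replicate 1 and 10 of 18 in replicate 2. No paired analysis was possible because there was 1 group and no test. Read depth was unknown, so a promoter without a peak had none detectable at this depth.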

Other observations

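Some members, chosen for mention after their values were seen, fell just below the IDR threshold in the pooled list. The strongest were nhr-50 (signal 39.2, rank 3752), nhr-86 (37.5), nhr-1 (35.9), nhr-134 (35.4) and the pair nhr-94 and nhr-152, whose promoters hold the same peak (35.4, rank 4076). In replicate 2 alone nhr-134 had rank 2235, with its summit 57 bp upstream, while nhr-227 had rank 3465 and nhr-193 rank 3613. Members with 1 annotated start were bound in 12 of 174 cases (6.90%, against 11.8% of all such genes) and those with more starts in 14 of 95 (14.7%, against 21.2%).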
